A study of Mus musculus with 64 samples.

Results

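The 7 mouse genes of the Fos and Jun family, Fos, Fosb, Fosl1, Fosl2, Jun, Junb and Jund, were followed in the nucleus accumbens (NAc) and the prefrontal cortex (PFCx) of mice 2 h after a single intraperitoneal injection of a psychotropic drug or saline. The genes were taken by symbol from the transcript tables of the 64 libraries. They are 7 of the 46785 genes and 12 of the 112714 transcripts in those tables, and the 7 genes and 12 transcripts all passed the filter on low values. A gene's level is the sum of the FPKM of its transcripts, where FPKM is a number of fragments scaled to transcript length and to the number of mapped fragments.

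Fos and Jun proteins are transcription factors of the basic leucine zipper class. A Fos protein pairs with a Jun protein to form activator protein 1 (AP-1), which binds short palindromic DNA elements, whereas Jun proteins can also pair with each other. Most of the family are immediate-early genes, which are transcribed within minutes of neuronal activity without new protein synthesis, and their RNA is therefore used as a marker of recently active neurons. In the striatum, drugs that act on dopamine receptors are known inducers of Fos and Fosb.

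The mice were adult C57BL/6N males. Haloperidol (1 mg/kg) and risperidone (0.5 mg/kg) are antipsychotics that block dopamine D2 receptors, and risperidone also blocks serotonin receptors. Methamphetamine (2 mg/kg) is a psychostimulant that releases dopamine, and ketamine (20 mg/kg) is a blocker of NMDA glutamate receptors. Mianserin (20 mg/kg) and venlafaxine (16 mg/kg) are antidepressants, the former a blocker of serotonin, histamine and adrenergic receptors and the latter an inhibitor of serotonin and noradrenaline reuptake. Each drug has 4 libraries per tissue and saline has 8, and 1 dose and 1 time were sampled for each drug. The labels divide the saline libraries into sets I and II, with 4 in each tissue. Haloperidol, risperidone and methamphetamine share with saline set I a lower number of transcripts above 0 in the NAc (85287 to 87827) than mianserin, venlafaxine, ketamine and saline set II (107099 to 110556). The first 3 drugs are therefore called set I and the other 3 set II, and each drug was compared both with the 8 saline libraries of the tissue and with the 4 of its own set, called same-set saline here. In the PFCx such numbers do not part the sets, with 43737 to 45164 genes above 0 in set I and 43547 to 45059 in set II. The sets of the drugs there are carried over from the NAc. Haloperidol and risperidone were dissolved in saline with a drop of hydrochloric acid, and an effect of that vehicle cannot be told apart from theirs. The sources do not say how many mice stand behind a library, so that the p-values measure the spread between libraries.

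The aligned sequence per library, from the ratio of coverage to FPKM, was 1.52 to 3.26 gigabases with a median of 2.39. The 8 markers of striatal medium spiny neurons summed to 448 to 729 FPKM in the NAc libraries and to 22.2 to 78.8 in the PFCx libraries. The 6 markers of cortical projection neurons summed to 45.7 to 114 FPKM in the NAc and to 208 to 309 in the PFCx, so that the markers fit the tissue labels, with some signal of the other region in each. In bulk tissue, fewer cells expressing a gene and less RNA per cell cannot be told apart.

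The DNA just before the start of a gene is where signals from the membrane reach the immediate-early genes. The promoters shown are those of Fos, Fosb and Junb, which moved most after haloperidol in the NAc, and that of Jun. Fosl2 moved more than Jun there (1.09 against 0.71 with 8 saline libraries), and its promoter, which had no match, is not shown. Each line gives the 110 bases before the start of the tables' coding transcript on its own strand, from RefSeq (assembly GRCm38.p6). Capitals mark matches to TGACG, the core of the cAMP response element bound by CREB, to TGACNTCA, an element bound by AP-1 and ATF proteins, or to TATAAA, the TATA box.
Fos, chr12:85473780-85473889, plus strand: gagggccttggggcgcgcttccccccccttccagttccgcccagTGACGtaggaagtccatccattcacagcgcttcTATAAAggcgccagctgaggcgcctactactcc
Fosb, chr7:19310046-19310155, minus strand: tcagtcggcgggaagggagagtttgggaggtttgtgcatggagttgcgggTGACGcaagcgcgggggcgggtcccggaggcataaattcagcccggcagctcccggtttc
Jun, chr4:95052223-95052332, minus strand: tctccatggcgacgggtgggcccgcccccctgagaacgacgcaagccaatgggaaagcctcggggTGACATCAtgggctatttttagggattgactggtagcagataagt
Junb, chr8:84978749-84978858, minus strand: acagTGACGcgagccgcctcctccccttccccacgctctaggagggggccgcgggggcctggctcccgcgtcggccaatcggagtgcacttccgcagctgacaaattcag
TGACG stands 66 to 62 bases before the start of Fos, 60 to 56 bases before that of Fosb and 106 to 102 bases before that of Junb, and a further copy lies 129 to 125 bases before Fos, upstream of the stretch shown. Jun has TGACATCA 45 to 38 bases before its start, and Fos is the one of the 4 with TATAAA, 33 to 28 bases before. Of 32851 RefSeq promoters searched on both strands over 250 bases before the start, 17.8% held TGACG, 7.49% TGACNTCA and 12.4% TATAAA. Within these 250 bases, the entries of the 6 family members in that table had no match to TGACGTCA, the full element (1.55% of promoters), to TGANTCA, the classical AP-1 site (6.75%), to GCGTGGGCG, an Egr site (0.536%), or to the CArG box bound by serum response factor (1.47%). DNA further upstream was not searched, for the CArG box or any other motif. TGACGTCA is also a match to TGACG and to TGACNTCA. Fosl2 and Jund had none of these motifs, and Fosl1 is not in the table. The starts of Fosl2 and Jund differ between annotations, and the search rests on the start used. For Fosl2 the searched stretch ends at chr5:32136471, inside the coding transcript quantified here, which starts at 32135801. For Jund it ends at chr8:70697738, whereas another annotation, GENCODE, starts the transcript at 70698949. A match is a description of the letters and not a bound site.

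In the NAc, haloperidol raised more of the family than any other drug did on FPKM as deposited. That order turns with the 75th percentile scaling, where mianserin has 6 members called and haloperidol 3. With that scaling 10644 of all 37034 genes were called higher after mianserin and 8 after haloperidol. On FPKM as deposited, 6 of the 7 members were higher after haloperidol against the 8 saline libraries, where 0.527% of all 37034 genes tested were. Against same-set saline 5 were higher, where 0.208% of all genes were. Fosb, Fos and Junb moved most. Risperidone raised 5 members (0.446% of all genes) and 4 against same-set saline (0.192%), and methamphetamine raised 4 against either control (0.162% and 0.081%). Fos, Fosb, Fosl2 and Junb are the 4 that all 3 drugs raised against both controls. Rescaling each library to the 75th percentile of its genes above 0 moved the counts to 3, 0 and 1 with 8 saline libraries. With same-set saline they moved to 5, 3 and 4. Of all genes, 8, 0 and 3 were then called higher with 8 saline libraries and 44, 35 and 30 with same-set saline. The differences of Fos, Fosb, Fosl2 and Junb stayed above 0 in each case. That percentile was 4.39 to 4.94 FPKM in the set I libraries of the NAc and 2.03 to 2.35 in those of set II, and taken over the 23258 genes above 0 in every library instead it left the counts at 6, 4 and 4. No marker gene of the 8 cell types checked was called after haloperidol, risperidone or methamphetamine in the NAc.

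Fos, the founding member of the family and the usual activity marker, lies at chr12:85473890-85477273 (mm10, the GRCm38 assembly, plus strand) in 4 exons. In the NAc its level in the 8 saline libraries was 1.60 to 3.40 FPKM with a median of 2.45. In the 4 haloperidol libraries it was 9.51, 9.78, 11.6 and 11.5 FPKM. In the 4 methamphetamine libraries it was 7.13, 7.47, 6.61 and 5.80 FPKM. Both drug groups lay wholly above saline. Such a separation of drug libraries from saline describes the values, here and below. The share of all genes that show it is not given, so that it is no test of a rise. The risperidone libraries had 5.58, 5.30, 5.28 and 3.11 FPKM, and the last of them fell inside the range of the 8 saline libraries. On the log2(FPKM + 1) scale, on which all differences are given, Fos rose by 1.78 ± 0.12 (SE, limma, adjusted p = 2.35e-10) after haloperidol, by 1.20 ± 0.12 (adjusted p = 1.75e-06) after methamphetamine and by 0.76 ± 0.12 (adjusted p = 0.00138) after risperidone. The ratios of mean FPKM to saline were 4.39, 2.80 and 2.00. Mianserin and ketamine raised Fos as well. The mianserin libraries had 6.55, 6.74, 5.52 and 4.83 FPKM, and the ketamine libraries 7.55, 5.79, 5.67 and 6.82, all above the 8 saline libraries. The differences were 1.03 ± 0.12 (adjusted p = 2.09e-05) for mianserin and 1.14 ± 0.12 (adjusted p = 6.74e-06) for ketamine. Venlafaxine left Fos at 2.28, 1.68, 1.74 and 2.21 FPKM, within the saline range, and the difference of -0.18 ± 0.12 did not pass the test (adjusted p = 0.397). With same-set saline the 5 rises stayed between 0.76 and 1.77 and passed the test, the highest adjusted p being 0.0161, for risperidone.

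Fosb, which encodes a protein of long persistence in striatal neurons when spliced to its truncated form, lies at chr7:19302721-19310045 (minus strand) in 4 exons. The tables hold 1 Fosb transcript, so that the full-length and the truncated form could not be told apart. Its NAc level was 0.863 to 1.47 FPKM in the 8 saline libraries, with a median of 1.03. After haloperidol it was 6.07, 6.50, 7.02 and 6.53 FPKM, after risperidone 3.64, 4.87, 2.82 and 2.93, and after methamphetamine 3.50, 2.60, 2.77 and 2.90. These 12 libraries lay above all the saline libraries, and the haloperidol libraries above all other libraries. Fosb rose by 1.85 ± 0.087 (SE, adjusted p = 4.66e-14), 1.10 ± 0.087 (adjusted p = 1.76e-08) and 0.91 ± 0.087 (adjusted p = 3.83e-07), with ratios of mean FPKM of 5.94, 3.24 and 2.68. In the mianserin libraries Fosb was 1.38 to 1.86 FPKM, and its difference of 0.34 ± 0.087 passed the test against 8 saline libraries (adjusted p = 0.0418) but not against same-set saline (0.29, adjusted p = 0.356). The call was also lost when any of 8 single libraries was left out, with an adjusted p of up to 0.131 without the fourth mianserin library. After ketamine Fosb was 1.31 to 1.67 FPKM and after venlafaxine 0.942 to 1.17, and neither passed the test (adjusted p = 0.167 and 0.934).

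Fosl2, the gene of the Fos-related antigen Fra-2, lies at chr5:32135801-32157842 (plus strand). In the NAc it was 2.31 to 2.99 FPKM in the saline libraries. The haloperidol libraries had 6.49, 7.08, 6.73 and 7.13 FPKM, the methamphetamine libraries 6.55, 5.69, 5.81 and 6.72, and the risperidone libraries 5.17, 4.70, 4.76 and 4.72. All 12 exceeded every saline library. Fosl2 rose by 1.09 ± 0.081 (adjusted p = 7.75e-10), 0.96 ± 0.081 (adjusted p = 3.04e-08) and 0.66 ± 0.081 (adjusted p = 3.22e-05). After ketamine it was 2.86 to 4.10 FPKM, and its difference of 0.31 ± 0.081 passed the test against 8 saline libraries (adjusted p = 0.0446) but not against same-set saline (0.34, adjusted p = 0.0971). That call was lost in 18 of the 32 fits that leave out 1 library, with an adjusted p of up to 0.125. After mianserin Fosl2 was 3.15 to 3.53 FPKM, above the saline range in 4 of 4 libraries, but its difference of 0.23 did not pass the test over all genes (adjusted p = 0.117).

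Fosl1, the gene of Fra-1, had the lowest mean level of the 7 over the 8 saline libraries in both tissues, though in saline set I of the NAc it was above Fosb (1.08 and 1.02 FPKM). No contrast with a drug called it on FPKM as deposited. With the 75th percentile scaling it was called after venlafaxine in the NAc (0.34, adjusted p = 0.0342), where 13014 of the 37034 genes were called higher. It lies at chr19:5447703-5455945 (plus strand) and overlaps Ccdc85b on the other strand, and since the sources do not say whether strand was used, reads of both cannot be told apart. Its level was 0.543 to 1.63 FPKM in the saline libraries of the NAc and 0.749 to 1.68 in the drug libraries. On FPKM as deposited the lowest adjusted p over its contrasts was 0.218.

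**Figure D1:**
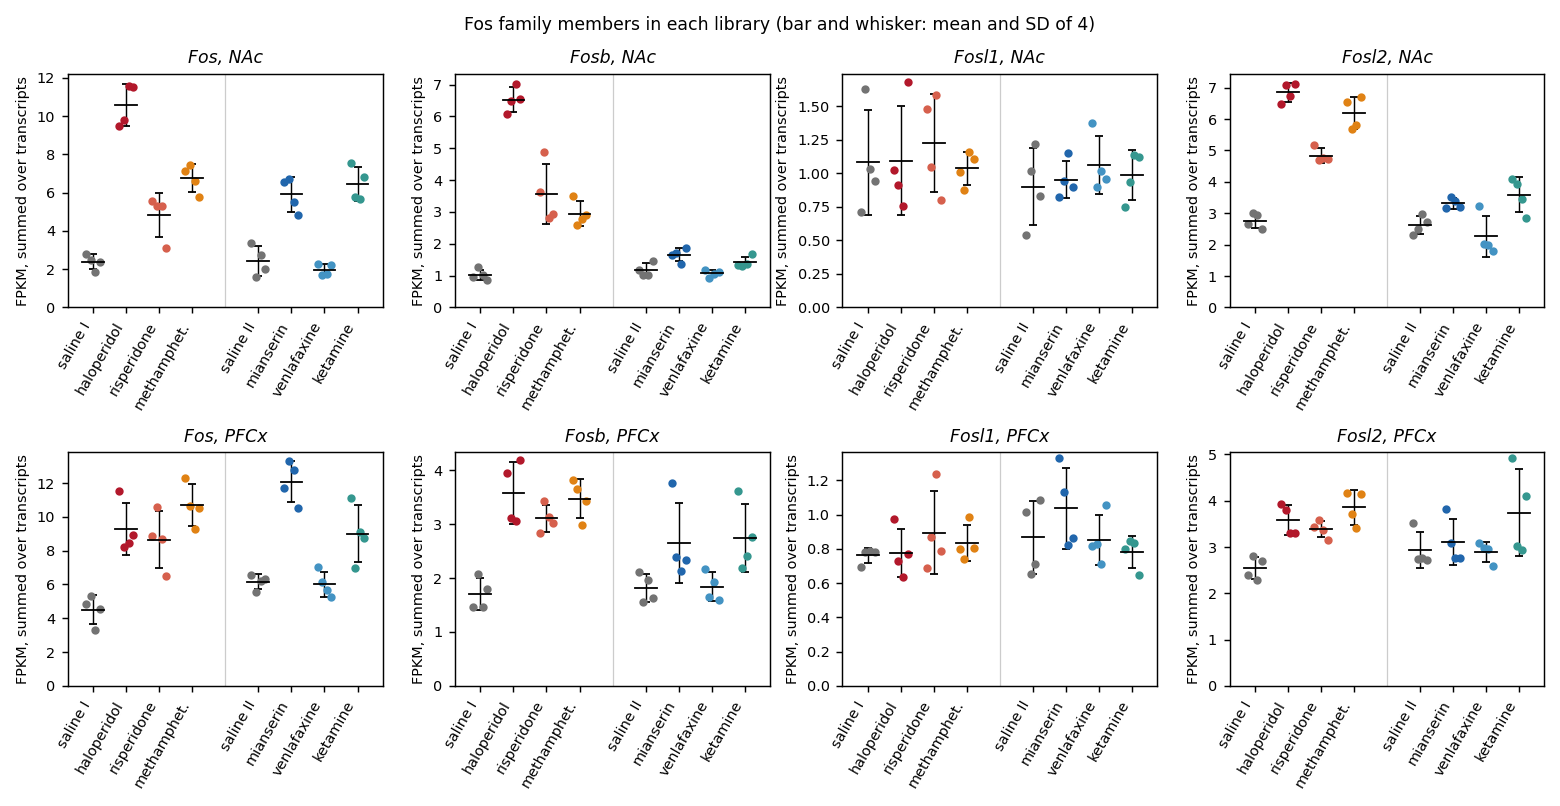
FPKM of the 4 Fos genes in each library (points) of the NAc (upper row) and the PFCx (lower row), with saline set I and its 3 drugs to the left of the grey line and saline set II and its 3 drugs to the right; bars and whiskers are the mean and SD of 4 libraries. In the NAc the 4 haloperidol libraries of Fosb lie between 6.07 and 7.02 FPKM, above all other libraries.

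Of the Jun genes, Junb was the one that all 3 set I drugs raised against both controls. Junb, an activity-induced Jun protein that often replaces Jun in AP-1, is a gene of 1 exon at chr8:84976909-84978748 (minus strand). In the NAc it stood at 5.41 to 6.75 FPKM in saline set I and at 3.10 to 4.50 in saline set II, with no overlap between the sets. The haloperidol libraries had 17.6, 21.1, 19.3 and 19.8 FPKM, the methamphetamine libraries 15.2, 12.7, 11.2 and 10.1, and the risperidone libraries 11.5, 11.8, 10.3 and 8.23. Each exceeded every saline library. Against the 8 saline libraries Junb rose by 1.83 ± 0.15 (adjusted p = 8.04e-09) after haloperidol, 1.20 ± 0.15 (adjusted p = 4.71e-05) after methamphetamine and 0.98 ± 0.15 (adjusted p = 0.000591) after risperidone. Against same-set saline, whose level was higher, the same rises were 1.51, 0.88 and 0.66, and all passed the test, with adjusted p up to 0.0156. Mianserin gave 4.69, 6.14, 5.28 and 5.59 FPKM, inside the range of the 8 saline libraries but above its 4 same-set libraries, a difference of 0.47 ± 0.13 that did not pass the test over all genes (adjusted p = 0.152).

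Jun, the founding member of the Jun branch, is a gene of 1 exon at chr4:95049034-95052222 (minus strand) with the antisense gene Junos across it. Haloperidol libraries had 6.80, 5.91, 6.68 and 5.91 FPKM in the NAc. After saline, Jun was 3.84 to 4.31 FPKM in the 4 set I libraries and 2.80 to 3.09 in the 4 of set II. Jun rose after haloperidol by 0.71 ± 0.081 (adjusted p = 3.79e-06), or by 0.53 ± 0.063 (adjusted p = 1.56e-05) against same-set saline. Rescaling each library to the same 75th percentile kept the direction of the haloperidol difference (0.25) but not its call (adjusted p = 0.0739). After risperidone Jun was 4.26 to 4.88 FPKM, which passed narrowly against 8 saline libraries (0.33 ± 0.081, adjusted p = 0.0484) and did not against same-set saline (0.15, adjusted p = 0.636), lost its call in 26 of 32 fits without 1 library, and turned to -0.075 with the 75th percentile scaling. After methamphetamine it was 4.34 to 4.96 FPKM, close to risperidone, and did not pass the test (0.33 ± 0.081, adjusted p = 0.11), although without the fourth library of saline set I it did (adjusted p = 0.0364).

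Jund, the Jun gene that most cells express without stimulation, lies at chr8:70697739-70700616 (plus strand) with the antisense gene Gm11175 across it. In the NAc it was 10.2, 10.3, 10.3 and 10.4 FPKM after haloperidol against 8.35 to 9.68 in saline set I and 6.93 to 7.52 in set II. Its difference of 0.33 ± 0.068 passed the test against 8 saline libraries (adjusted p = 0.0155) but not against same-set saline (0.19, adjusted p = 0.355). The call was lost without the second or the fourth haloperidol library (adjusted p = 0.0522 and 0.0564), and the difference turned to -0.16 with the 75th percentile scaling. The moderated F over the 6 drugs called 6 of 7 members in the NAc against 8 saline libraries, where 36.9% of all genes were called, and 5 of 7 with same-set saline, where 1.63% were. The member between the counts was Jund (adjusted p = 0.29 with same-set saline).

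**Figure D2:**
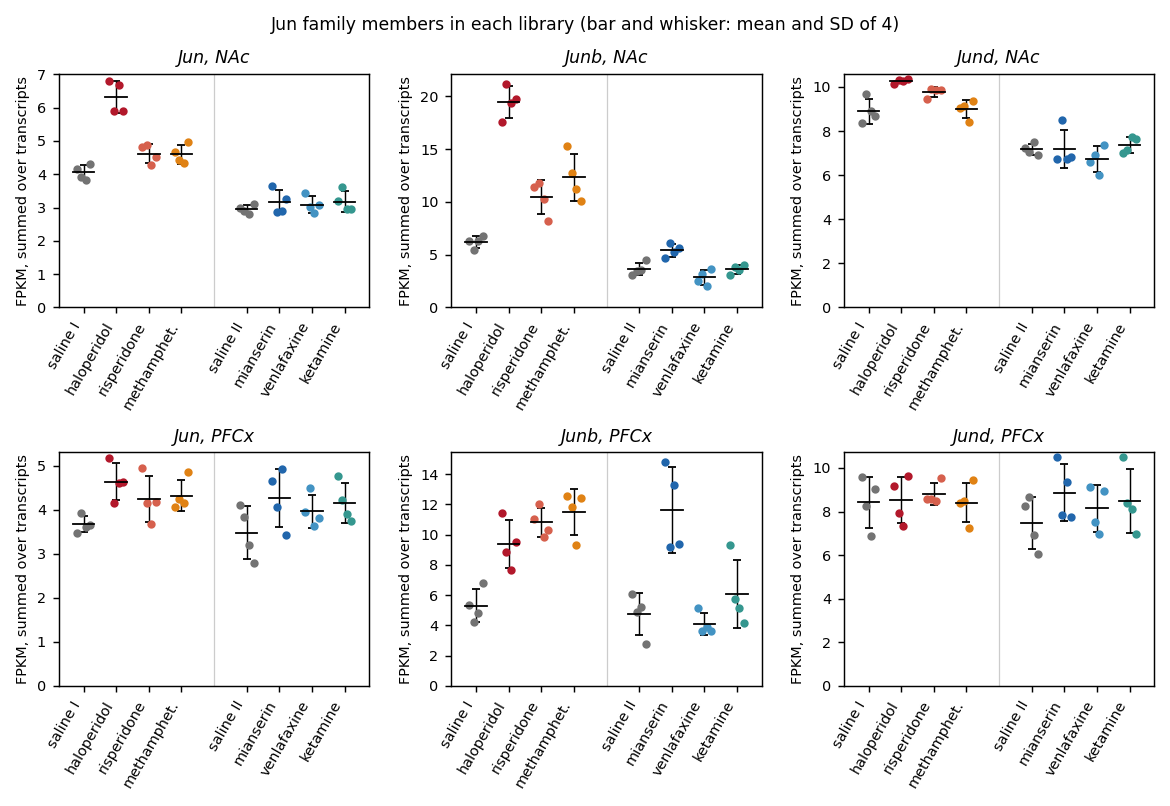
FPKM of the 3 Jun genes in each library (points), drawn as for the Fos genes, with the mean and SD of 4 libraries. In the NAc every set I saline library lies above every set II saline library for each of the 3 genes, an order of the sets that turns round with the 75th percentile scaling (Jun -0.44, Junb -0.23, Jund -0.65), and the haloperidol libraries lie highest, with Jund between 10.2 and 10.4 FPKM; the haloperidol difference of Jund turns from 0.33 to -0.16 with that scaling.

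The saline sets themselves differed in the Jun genes of the NAc, in a direction that depends on the scaling. On FPKM as deposited, saline set I exceeded set II by 0.36 ± 0.063 in Jun (adjusted p = 0.00025), 0.64 ± 0.13 in Junb (adjusted p = 0.000839) and 0.28 ± 0.058 in Jund (adjusted p = 0.00134), where 24.7% of all genes were called in either direction. Each set I library lay above each set II library in these 3 genes, as in 5.71% of all genes. With the 75th percentile scaling the differences turned to -0.44 in Jun (adjusted p = 3.11e-06), -0.23 in Junb (adjusted p = 0.0845) and -0.65 in Jund (adjusted p = 1.37e-10), while the median of all genes went from -0.081 to -0.39. With that percentile taken over genes above 0 in every library they stayed at 0.29 (adjusted p = 0.00392), 0.56 (adjusted p = 0.00136) and 0.19 (adjusted p = 0.00966). None of the 4 Fos genes was called between the saline sets of the NAc by limma on FPKM as deposited, whereas with the first scaling all 4 were lower in set I (Fos -0.70, Fosb -0.61, Fosl2 -0.68, Fosl1 -0.36). In the PFCx no member was called between the sets, where 9.20% of all genes were, and with either scaling Fos was (-0.47, adjusted p = 0.0215, and -0.45, adjusted p = 0.0216). On FPKM as deposited, a set II drug set against the pooled saline is thus measured against a higher Jun level than that of its own saline, and a set I drug against a lower one.

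On FPKM as deposited, the set II drugs raised few members in the NAc. The 75th percentile scaling moved the members called with 8 saline libraries to 6 after mianserin, 2 after venlafaxine and 4 after ketamine, and to 2, 0 and 1 with same-set saline. With that scaling 10644, 13014 and 8686 of the 37034 genes were called higher after these drugs with 8 saline libraries. With same-set saline 178, 9 and 147 were. Mianserin raised 2 members, Fos and Fosb, against 8 saline libraries, where 1.43% of all genes were higher, and Fos alone against same-set saline, where 0.17% were. Ketamine raised Fos and Fosl2 (1.43% of all genes) and Fos alone against same-set saline (0.348%). After ketamine the 5 oligodendrocyte markers summed to 658 to 723 FPKM against 512 to 575 in saline set II, and Mobp was called higher with either control (0.29, adjusted p = 0.024, and 0.39, adjusted p = 0.00068). Mbp (0.32, adjusted p = 0.00264) and the astrocyte marker Aqp4 (0.35, adjusted p = 0.0104) were called with same-set saline and not with 8 saline libraries. The cortical projection neuron markers summed to 69.0 to 95.7 FPKM after ketamine against 47.8 to 66.2 in saline set II and 77.4 to 100 in set I. The astrocyte markers summed to 91.1 to 95.2 against 75.9 to 81.2 in saline set II. Those of endothelial and mural cells went the other way, with 13.2 to 14.8 against 16.3 to 17.0. The part of all these markers in the Fos result was not tested. Venlafaxine raised none of the members, where 1.10% of all genes were higher and with same-set saline 0.0054%. It lowered Junb against 8 saline libraries (2.53, 3.18, 2.00 and 3.65 FPKM, -0.60 ± 0.15, adjusted p = 0.0429), where 0.729% of all genes were lower. Against same-set saline the Junb difference was -0.28 (adjusted p = 0.843), 0 members were called by limma in either direction and 1 had an unadjusted p under 0.05. The Junb call was also lost in 10 of 32 fits without 1 library, with an adjusted p of up to 0.206.

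**Figure D3:**
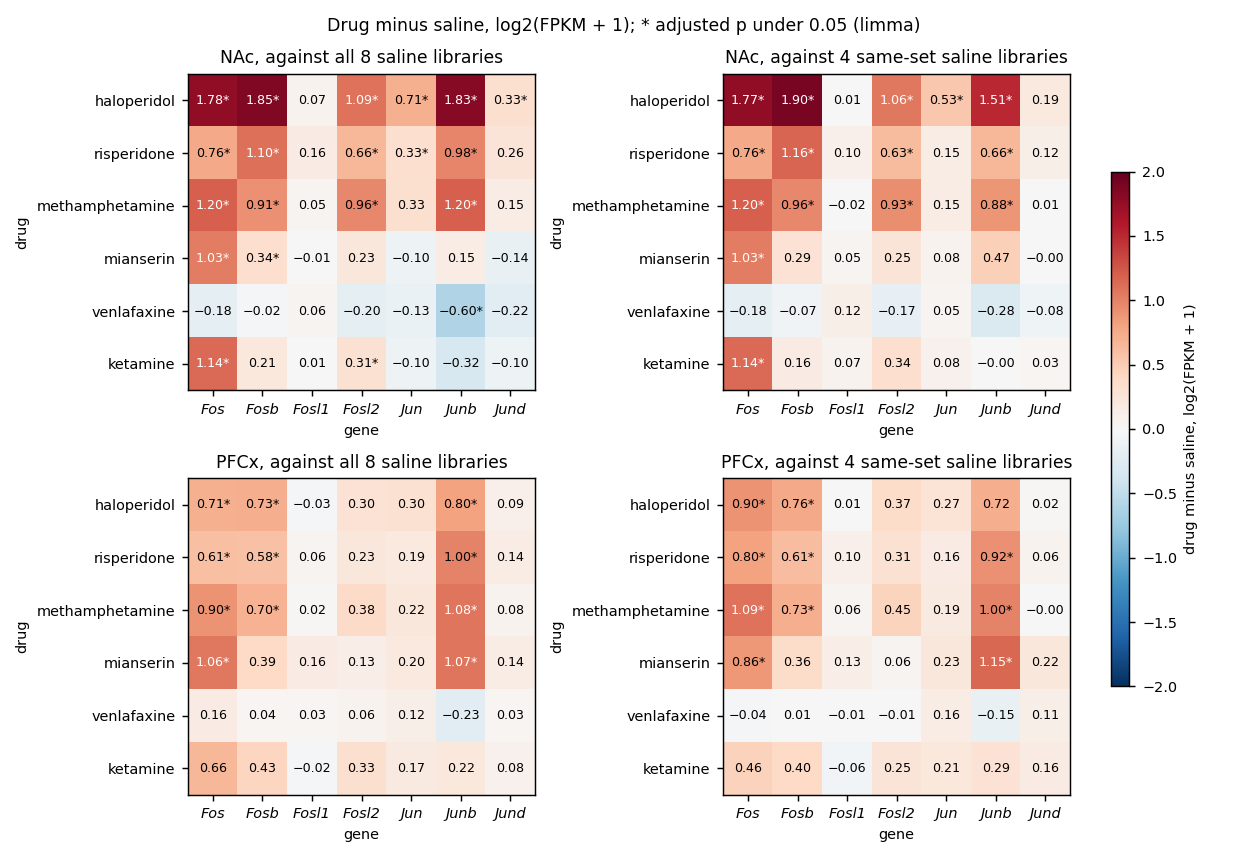
Drug minus saline on the log2(FPKM + 1) scale for each member (columns) and drug (rows), in the NAc (upper row) and the PFCx (lower row), against all 8 saline libraries (left) and against the 4 of the same set (right); blue is lower, red is higher and a star marks an adjusted p under 0.05. The set I drugs in the NAc hold the 3 largest values of the left-hand maps, all after haloperidol (1.85, 1.83 and 1.78), and the call of Jund there is absent on the right.

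Drugs of the same set can be compared with each other directly, and the 3 pairs of each set were compared in each tissue. Haloperidol exceeded risperidone in NAc Fos by 1.01 ± 0.14 (adjusted p = 0.00119) and in Fosb by 0.74 ± 0.10 (adjusted p = 0.000635), where 0.0378% of all genes were higher. In Junb the difference was 0.85 ± 0.17 (adjusted p = 0.0817) and in Fosl2 0.43 ± 0.094 (adjusted p = 0.124), so that these stayed short of the test. Haloperidol exceeded methamphetamine in Fosb by 0.94 ± 0.10 (adjusted p = 1.81e-05), and Fosb was the 1 gene of the 37034 (0.0027%) that was higher. Their Fos levels, 10.6 ± 1.1 and 6.75 ± 0.73 FPKM (mean ± SD, n = 4), did not overlap, but the difference of 0.58 ± 0.14 did not pass the test over all genes (adjusted p = 0.306). No member was called between risperidone and methamphetamine. In set II, Fos after venlafaxine was below Fos after mianserin, which exceeded it by 1.21 ± 0.14 (adjusted p = 4.09e-05, with 0.105% of all genes higher), and below Fos after ketamine (-1.32 ± 0.14, adjusted p = 1.34e-05). Fosl2 was also lower after venlafaxine than after ketamine (-0.50 ± 0.094, adjusted p = 0.00651), where 0.173% of all genes were lower. No member was called between mianserin and ketamine in the NAc.

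In the order of mean NAc levels of Fos, haloperidol stood first, followed by methamphetamine, ketamine, mianserin, risperidone, saline and venlafaxine. The step from risperidone to saline was the one between neighbours that passed the test. The libraries of haloperidol and methamphetamine did not overlap although that step did not pass, and the libraries of the neighbours from methamphetamine down to risperidone overlapped. For Fosb the order was haloperidol, risperidone, methamphetamine, mianserin, ketamine, saline and venlafaxine. Haloperidol differed there from risperidone (adjusted p = 0.000635) and methamphetamine from mianserin (0.57, adjusted p = 0.00141), a step that also crosses the sample sets. Fosl2 fell off between risperidone and ketamine (0.35, adjusted p = 0.00979), again across the sets.

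The balance of Fos to Fosb differed among the drugs that raised Fos. The ratio of their FPKM in the NAc was 4.09 to 5.66 in the ketamine libraries and 2.59 to 4.00 in the mianserin libraries. It was 2.00 to 2.88 after methamphetamine, 1.51 to 1.77 after haloperidol, 1.06 to 1.87 after risperidone, 1.65 to 1.98 after venlafaxine and 1.37 to 2.95 over the 8 saline libraries. The ketamine libraries thus lay above all saline libraries, with Fos raised and Fosb near its saline level, whereas after haloperidol both were raised and the ratio lay inside the range of the 8 saline libraries and below the 4 of saline set I (1.84 to 2.95). The ratio of Fos to Junb was 0.463 to 0.598 after haloperidol and 1.50 to 2.48 after ketamine. It was 0.298 to 0.463 in saline set I and 0.45 to 1.10 in saline set II. Unlike the ratio to Fosb, it thus did not lie below saline set I after haloperidol, and the saline sets differed in it. These ratios are a description and were not tested.

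**Figure D4:**
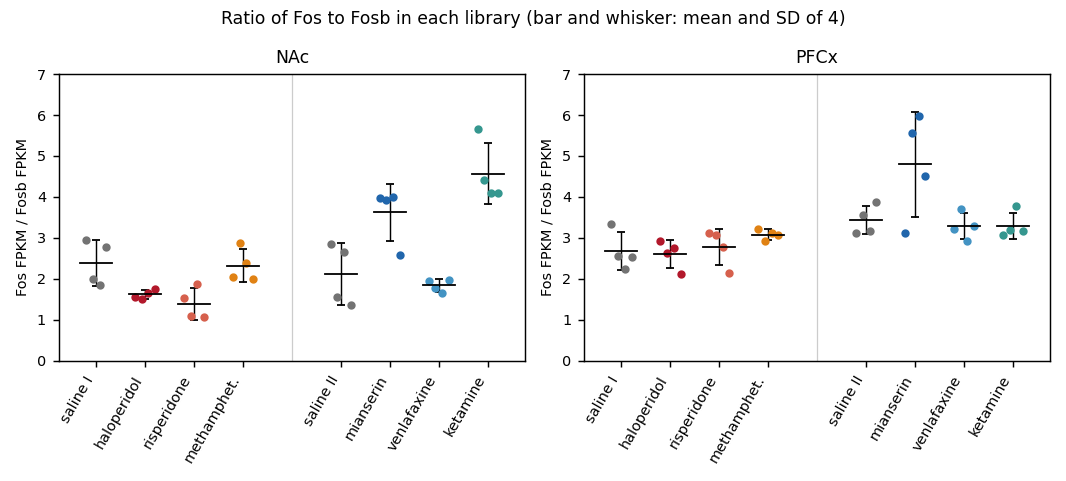
Ratio of Fos FPKM to Fosb FPKM in each library (points), with the mean and SD of 4 libraries, in the NAc (left) and the PFCx (right), with set I to the left of each grey line and set II to the right. In the NAc the ketamine libraries lie between 4.09 and 5.66, above the saline libraries at 1.37 to 2.95.

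In the PFCx Fos and Junb rose after 4 of the 6 drugs, the exceptions being venlafaxine and ketamine. Haloperidol, risperidone and methamphetamine each raised Fos, Fosb and Junb against 8 saline libraries, 3 of 7 members, where 0.124%, 0.284% and 0.27% of all genes were higher. With same-set saline the counts were 2, 3 and 3 (0.0135%, 0.122% and 0.135% of all genes), Junb after haloperidol being the call lost. Mianserin raised 2 members, Fos and Junb, against either control (0.343% and 0.54% of all genes). Ketamine and venlafaxine raised 0 members by limma with either control. After ketamine 4 members had an unadjusted p under 0.05 and after venlafaxine 0 had, with either control. Of all genes, 0.0135% and 0.265% were higher after ketamine with the pooled and the same-set control, and 0.0027% and 0.0324% after venlafaxine. The moderated F called 3 of 7 members with 8 saline libraries (3.34% of all genes), Fos, Fosb and Junb.

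Fos started from a higher level in this tissue. The saline libraries had 3.31 to 6.59 FPKM with a median of 5.46. Mianserin gave 11.7, 13.3, 12.8 and 10.6 FPKM, and methamphetamine 12.3, 10.7, 9.30 and 10.5, all above saline. The differences were 1.06 ± 0.13 (adjusted p = 1.48e-05) and 0.90 ± 0.13 (adjusted p = 0.000452). Haloperidol libraries had 11.6, 8.22, 8.43 and 8.93 FPKM (0.71 ± 0.13, adjusted p = 0.0237) and risperidone libraries 8.87, 10.6, 8.68 and 6.48 (0.61 ± 0.13, adjusted p = 0.0231). The haloperidol call was lost without the first (adjusted p = 0.146) or the fourth (0.0574) of its libraries. The risperidone call was lost without the first, the second or the third of its libraries (adjusted p = 0.0816, 0.148 and 0.0871). Against same-set saline these were 0.90 (adjusted p = 0.00552) and 0.80 (adjusted p = 0.00493). The 4 ketamine libraries, at 6.99 to 11.1 FPKM, lay above every saline library, and the difference of 0.66 ± 0.13 did not pass the test over all genes (adjusted p = 0.0706, and 0.0757 with same-set saline). Among genes with a mean of at least 1 FPKM it passed (adjusted p = 0.0454), as it did against saline set I alone (0.85, adjusted p = 0.000562).

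Junb in the PFCx was 2.79 to 6.80 FPKM after saline. It was 14.8, 9.16, 13.3 and 9.38 FPKM after mianserin, 12.6, 11.8, 9.30 and 12.4 after methamphetamine and 11.1, 12.1, 9.87 and 10.3 after risperidone. These libraries lay above all the saline libraries. The rises were 1.07 ± 0.16 (adjusted p = 0.000463), 1.08 ± 0.16 (adjusted p = 0.000773) and 1.00 ± 0.16 (adjusted p = 0.00195). Haloperidol gave 7.70 to 11.5 FPKM (0.80 ± 0.16, adjusted p = 0.0378), which did not pass against same-set saline (0.72, adjusted p = 0.36) and lost its call in 7 of 32 fits without 1 library, with an adjusted p of up to 0.186. Mianserin exceeded venlafaxine in Junb by 1.30 ± 0.19 (adjusted p = 0.000458) and in Fos by 0.90 ± 0.15 (adjusted p = 0.00278), where 0.135% of all genes were higher, and its Junb difference from ketamine, 0.86 ± 0.19, stayed just short (adjusted p = 0.0539). No other member was called between drugs of the same set in the PFCx.

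Fosb in the PFCx was 1.46 to 2.11 FPKM after saline. It was 3.07 to 4.19 FPKM after haloperidol, 2.84 to 3.44 after risperidone and 2.98 to 3.82 after methamphetamine, with no overlap with saline. The rises were 0.73 ± 0.10 (adjusted p = 0.00134), 0.58 ± 0.10 (adjusted p = 0.00395) and 0.70 ± 0.10 (adjusted p = 0.000499), and the 3 drugs did not differ from one another by the test. The mianserin libraries, at 2.13 to 3.76 FPKM, also lay above the saline range, and the difference of 0.39 ± 0.10 did not pass on FPKM as deposited (adjusted p = 0.0798) but did with the 75th percentile scaling (0.46, adjusted p = 0.0305). Fosl2 moved less, with 3.40 to 4.17 FPKM after methamphetamine against 2.29 to 3.53 after saline (0.38 ± 0.090, adjusted p = 0.0666). The gene sum was called without any of 4 single libraries, for example without the first ketamine library (adjusted p = 0.0233). Jun and Jund were called after no drug in the PFCx. The 4 haloperidol libraries of Jun, at 4.16 to 5.19 FPKM, lay above the 8 saline libraries at 2.79 to 4.11, and the difference of 0.30 ± 0.081 did not pass the test over all genes (adjusted p = 0.121).

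On FPKM as deposited, the haloperidol response was larger in the NAc than in the PFCx. The test takes the libraries of both tissues as independent, and whether they share mice is not known. The difference of the differences was 1.12 ± 0.14 in Fosb (adjusted p = 1.91e-06), 1.07 ± 0.18 in Fos (adjusted p = 0.00201) and 0.80 ± 0.12 in Fosl2 (adjusted p = 0.000258), 3 of 7 members where 0.0351% of all genes were called in that direction. In Junb it was 1.03 ± 0.23 and did not pass (adjusted p = 0.0691), although it did when any of 4 single libraries was left out, with an adjusted p of 0.016 without the fourth PFCx library of saline set II. With same-set saline in each tissue the call was kept by Fosb (1.14, adjusted p = 9.27e-05; 0.0081% of all genes) and lost by Fos (0.87, adjusted p = 0.153) and Fosl2 (0.69, adjusted p = 0.0636). With the 75th percentile scaling and 8 saline libraries all 3 calls were lost (Fosb 0.58, adjusted p = 0.0913, Fos 0.57, adjusted p = 0.131, Fosl2 0.34, adjusted p = 0.222). No member was called for the other 5 drugs with either control, and none of the 37034 genes was called for risperidone or methamphetamine. Of the members, 2 had an unadjusted p under 0.05 for risperidone and 1 for methamphetamine with either control, and mianserin, venlafaxine and ketamine each had 3 with 8 saline libraries and 1, 0 and 1 with same-set saline. With 8 saline libraries, 0.0864% of all genes were called higher and 0.0324% lower for mianserin, 0.0459% and 0.0054% for venlafaxine, and 0.286% and 0.027% for ketamine. For mianserin the Junb value pointed the other way, -0.92 ± 0.23 (adjusted p = 0.0694), and it passed the test without any 1 of the 4 NAc libraries of saline set II, with adjusted p down to 0.0349.

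After saline, Fos and Fosb were lower in the NAc than in the PFCx. The mean ± SD over 8 libraries was 2.41 ± 0.58 against 5.34 ± 1.1 FPKM for Fos and 1.10 ± 0.20 against 1.76 ± 0.27 for Fosb. On the log2 scale the NAc was lower by -0.89 ± 0.11 (adjusted p = 5.8e-10) and -0.39 ± 0.078 (adjusted p = 5.4e-05). These were 2 of 7 members, where 37.1% of all genes were called lower in the NAc. A lower level there was thus not particular to the family. The haloperidol libraries of the NAc reached 9.51 to 11.6 FPKM of Fos, over the range of those of the PFCx at 8.22 to 11.6. The larger Fos difference of the NAc thus went with a lower saline level, and the means after the drug were 10.6 ± 1.1 FPKM in the NAc and 9.28 ± 1.5 in the PFCx (SD, n = 4). For Fosb the NAc haloperidol libraries, at 6.07 to 7.02 FPKM, lay above the PFCx haloperidol libraries at 3.07 to 4.19. The other 5 members were not called between the tissues after saline, and with the 75th percentile scaling, which lowers the NAc difference of Jund to -0.37, 6 members were. With that scaling 21051 of the 37034 genes were called lower in the NAc, and the median difference of all genes was -0.21.

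**Figure D5:**
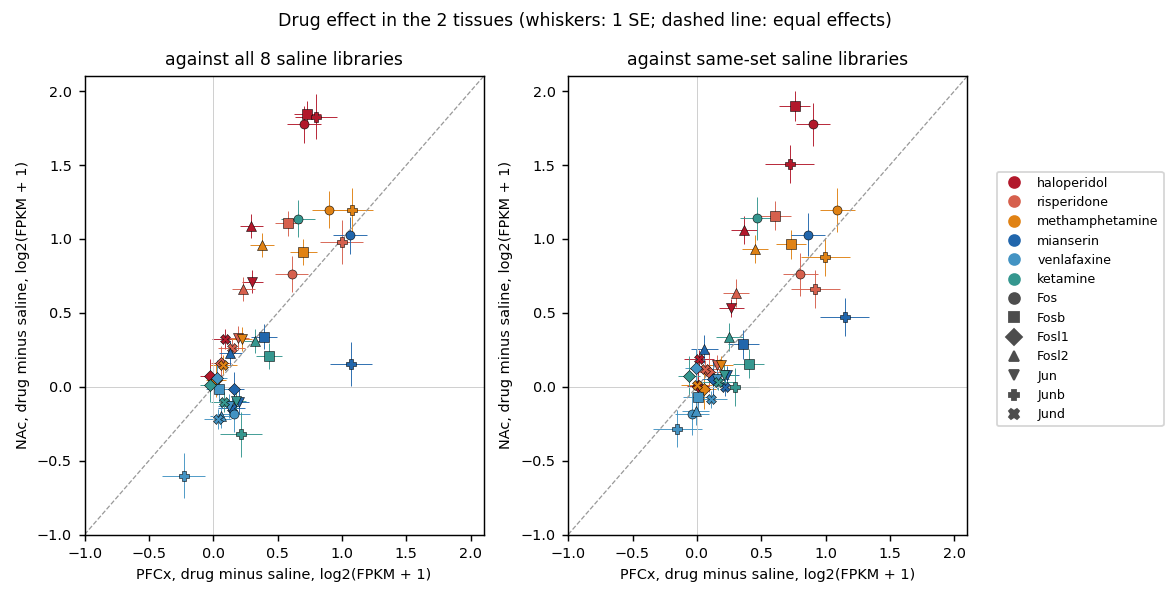
Drug minus saline in the NAc (vertical axis) against the PFCx (horizontal axis), both on the log2(FPKM + 1) scale, against all 8 saline libraries (left) and same-set saline (right); each point is a member under a drug, whiskers are 1 SE and the dashed line marks equal effects. Fosb, Fos and Fosl2 after haloperidol lie above the line by 1.12, 1.07 and 0.80 in the left panel.

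The coding transcript of Fos (ENSMUST00000021674) followed the sum of the gene. It made up 52.8% to 72.4% of the gene's FPKM by group mean. In the NAc it was 7.04, 6.57, 9.40 and 7.26 FPKM after haloperidol against 1.43 to 2.00 after saline, a rise of 1.67 ± 0.12 (adjusted p = 1.54e-09 over the 86331 transcripts tested, of which 0.148% were higher). The calls of the coding transcript in the NAc were those of the gene, for 5 of 6 drugs and with either control. In the PFCx the gene sum of Fos after saline was 4.52 ± 0.87 FPKM in set I and 6.17 ± 0.43 in set II (mean ± SD, n = 4), while the coding transcript was 3.25 ± 0.36 and 3.24 ± 0.42. The gap lay in the noncoding transcript ENSMUST00000134311, at 0.488 ± 0.60 FPKM in set I and 2.25 ± 0.39 in set II. Cufflinks divides reads between overlapping isoforms, and its bounds on that transcript in the PFCx lay at a median distance of 53.5% of the value from it, against 14.7% for the coding one. On the coding transcript the PFCx rise after ketamine was 0.55 ± 0.12 (adjusted p = 0.258) and did not pass, and that after haloperidol passed with 8 saline libraries (0.76, adjusted p = 0.0303) but not with same-set saline (0.75, adjusted p = 0.141).

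Fosl2 has 1 coding transcript and 2 with a retained intron in the tables. The coding transcript (ENSMUST00000031017) made up 74.4% to 83.7% of the FPKM by group mean. In the NAc it was 2.50 to 3.01 FPKM after ketamine against 1.73 to 1.89 in saline set II and 2.06 to 2.24 in set I. The ketamine rise of this transcript passed the test with either control (0.36 ± 0.073, adjusted p = 0.0317, and 0.43 ± 0.080, adjusted p = 0.00624, where 0.122% of all transcripts were higher with 8 saline libraries). In the PFCx it passed after methamphetamine with either control (0.38 ± 0.076, adjusted p = 0.0292, and 0.44, adjusted p = 0.0415; 0.0892% of all transcripts were higher with 8 saline libraries), where the gene sum had not. The retained-intron transcript ENSMUST00000202169 was 0.556, 1.65, 1.82 and 1.04 FPKM in the NAc haloperidol libraries, and its difference of 0.72 ± 0.17 did not pass (adjusted p = 0.0701). The other 5 members have 1 transcript each.

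Other immediate-early genes, a list of 16, moved with the family. In the NAc 11 of the 16 were higher after haloperidol (10 with same-set saline), 8 after risperidone (6) and 8 after methamphetamine (6), none of them lower, where 0.527%, 0.446% and 0.162% of all genes were higher (0.208%, 0.192% and 0.081% with same-set saline). The median difference over the list was 0.71 after haloperidol against -0.048 over all genes. Arc, a synaptic immediate-early gene, was 23.4 to 28.2 FPKM after haloperidol and 15.3 to 21.9 after methamphetamine against 5.12 to 7.50 after saline. Nr4a1, an orphan nuclear receptor, rose by 1.60 ± 0.099 (adjusted p = 1.84e-11) and 1.56 ± 0.099 (adjusted p = 1.02e-10). Egr4, a zinc finger factor, was 6.93 to 8.85 FPKM after haloperidol against 1.64 to 2.89 after saline. After mianserin and ketamine, which raised Fos, 1 of the 16 was higher with either control, namely Egr2 and Egr1 with 8 saline libraries and Nr4a1 in both cases with same-set saline. Of all genes, 1.43% were higher after each of these drugs with 8 saline libraries, and 0.17% and 0.348% with same-set saline. After venlafaxine 0 of the 16 were higher and 2, Nr4a1 and Arc, were lower by limma, neither of them with same-set saline, and 7 and 4 of the 16 had an unadjusted p under 0.05 with the respective controls. With 8 saline libraries 0.729% of all genes were lower after venlafaxine. In the PFCx the counts of the list were 3 after haloperidol and after risperidone, 9 after methamphetamine, 4 after mianserin and 0 after ketamine and venlafaxine (with same-set saline 1, 2, 7, 3, 0 and 0), where 0.124%, 0.284%, 0.27%, 0.343%, 0.0135% and 0.0027% of all genes were higher with 8 saline libraries. With same-set saline these shares were 0.0135%, 0.122%, 0.135%, 0.54%, 0.265% and 0.0324%. By limma, the list genes with an unadjusted p under 0.05 were 4 and 3 after ketamine and 3 and 4 after venlafaxine, in either direction, and Homer1, a synaptic scaffold gene named here after its values were seen, was lower after venlafaxine with same-set saline (-0.37, adjusted p = 0.00858). Dusp1, a phosphatase that switches off MAP kinases, was 8.46 to 9.75 FPKM after mianserin in the PFCx against 2.87 to 5.14 after saline (1.10 ± 0.12, adjusted p = 1.56e-06).

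The partners of the family moved little. Of 19 other basic leucine zipper genes, 1 was higher in the NAc after haloperidol (0.527% of all genes), Atf3, a stress-induced partner of Jun, at 0.649 to 0.890 FPKM against 0.136 to 0.548 after saline (0.47 ± 0.094, adjusted p = 0.00955, and 0.0319 with same-set saline). Atf3 also passed after risperidone with 8 saline libraries (0.44, adjusted p = 0.0213) and not with same-set saline. In the PFCx Mafk, a small Maf protein, rose after mianserin (0.53 ± 0.070, adjusted p = 5.39e-05) and risperidone (0.45 ± 0.070, adjusted p = 0.000981) with either control. Maff passed after mianserin in the NAc with 8 saline libraries alone (0.31, adjusted p = 0.0348). Mafg and Mafk were called by the moderated F in the NAc with 8 saline libraries (adjusted p = 0.00519 and 0.0145) and not with same-set saline (0.189 and 0.244).

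Upstream of the family, a list of 22 genes held kinases and transcription factors and also Fbxw7 and Cops5, which are neither. Of these, 0 were higher by limma after any drug in either tissue, and 0 to 6 per drug, tissue and control had an unadjusted p under 0.05 in either direction. Of all genes, 0.0027% to 1.43% were higher per drug and tissue with 8 saline libraries. Fbxw7, which marks Jun for degradation, fell after risperidone in the PFCx from 39.1 to 43.2 FPKM after saline to 33.5 to 34.9 (-0.28 ± 0.049, adjusted p = 0.00301, and 0.0328 with same-set saline). Map2k2, a MAP kinase kinase, was lower in the NAc after mianserin (-0.49, adjusted p = 0.0345) and ketamine (-0.45, adjusted p = 0.0451) with 8 saline libraries and not with same-set saline. Srf in the NAc (adjusted p = 0.00273) and Cops5 in the PFCx (adjusted p = 0.0182) were called by the F alone with 8 saline libraries, and neither kept that call with same-set saline (0.993 and 0.607). Of 16 genes described as AP-1 targets, Vgf, a secreted neuropeptide precursor, was higher after haloperidol in the NAc (0.54, adjusted p = 0.0174) and lower after venlafaxine (-0.47, adjusted p = 0.0414), and Il6 was higher after mianserin and venlafaxine. With 8 saline libraries 0.527%, 1.43% and 1.1% of all genes were higher after haloperidol, mianserin and venlafaxine, and 0.729% were lower after venlafaxine. None of these target calls held with same-set saline, which instead called Ccnd1 after ketamine. No target was called in the PFCx, where 0 of the 16 passed by limma after any of the 6 drugs with either control and 0 to 4 had an unadjusted p under 0.05.

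Over the 24 NAc drug libraries, each taken minus the mean of its same-set saline, Pearson's r between members was 0.921 for Fosb and Junb, 0.856 for Fosb and Fosl2 and 0.685 for Fos and Fosb, while Fosl1 had -0.247 to -0.0988 with the others. Among 15094 genes of at least 1 FPKM the nearest to Fosb were Egr4 (0.954), Egr3 (0.938) and Gadd45g (0.90). Those nearest to Fos were Nr4a1 (0.858), Frmd6 (0.829) and Egr1 (0.824), and those nearest to Fosl2 were Egr1 (0.948), Nr4a1 (0.933) and Arc (0.922). For Junb they were Dusp1 (0.914), Egr4 (0.902) and Zfp516 (0.898), and for Jun Inhba (0.782), Egr3 (0.766) and Arc (0.758). Jund was nearest to Gm10335 (0.854), Tsc22d1 (0.841) and Gnl1 (0.833), and Fosl1 to Tmed8 (0.712), RP24-269P21.1 (0.686) and Gm17586 (0.665). The libraries share their drug groups and their saline, so that these values describe the pattern and carry no test.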

How the data were processed

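Ribosomal RNA-depleted total RNA was sequenced by the authors on an Ion platform, aligned with TopHat2 2.0.1 to mm10 and then Tmap, and quantified with Cufflinks 2.2.1. The authors deposited 1 table per library with the FPKM of each transcript, its confidence bounds and its coverage, the unscaled signal from which the aligned bases were estimated. Read counts and the use of strand were not given in the sources used here.

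FPKM was summed per gene ID, and genes with a mean of at least 0.1 in either tissue entered limma 3.58.1 (R 4.3.3) on log2(FPKM + 1), so that differences of low genes are understated. Pooled saline was the main control, and same-set saline, other scalings, filters and pseudocounts, the replicate block and leaving out libraries were alternatives. Benjamini-Hochberg adjustment ran over all genes of a contrast, with a threshold of 0.05. Steps were tested on simulated data. Named genes were the members, the list genes with the lowest F p and those most alike each member. The members and lists were chosen with earlier results of these data known. Some genes of the lists are not reported here.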

Additional observations from a re-analysis of the deposited data

Results flagged for a closer look

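In 9 of the 112 groups of 4 libraries, 1 library stood far from the other 3 by Dixon's test, which chance gives in about 1 of 20 groups. In the NAc after risperidone 1 library had 3.11 FPKM of Fos against 5.28 to 5.58 in the others, 1 had 5.17 FPKM of Fosl2 against 4.70 to 4.76, and 1 had 9.44 FPKM of Jund against 9.86 to 9.93. In the NAc 1 venlafaxine library had 3.23 FPKM of Fosl2 against 1.81 to 2.03, and 1 mianserin library had 8.48 FPKM of Jund against 6.73 to 6.81. In the PFCx 1 mianserin library had 3.76 FPKM of Fosb against 2.13 to 2.39, and 1 risperidone library had 9.54 FPKM of Jund against 8.50 to 8.59. Among the PFCx saline libraries, 1 of set I had 0.695 FPKM of Fosl1 against 0.779 to 0.791, and 1 of set II had 3.53 FPKM of Fosl2 against 2.72 to 2.77.

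The haloperidol effect differed between the NAc and the PFCx, by the interaction test, in Fos (1.07 on the log2 scale, adjusted p = 0.00201), Fosb (1.12, adjusted p = 1.91e-06) and Fosl2 (0.80, adjusted p = 0.000258). With same-set saline Fosb alone kept its call (Fos adjusted p = 0.153, Fosl2 0.0636), and with the 75th percentile scaling none of the 3 did.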

How the results depend on the processing

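Scaling was the setting with the greatest reach. Dividing each library by the 75th percentile of its genes above 0 follows the number of such genes, which in the NAc was 28824 to 30201 in set I and 42443 to 44948 in set II, and it moved the NAc median of all genes to -0.19 to -0.18 for set I drugs and 0.19 to 0.22 for set II drugs. Of 147 results of single members it reversed 7, and among those that kept their direction it ended 14 calls, made 10 and left 116 on their side of the threshold. In the NAc it turned Jund after haloperidol to -0.16, Jun after risperidone to -0.075, Jun after mianserin, venlafaxine and ketamine to 0.31, 0.31 and 0.27 and Jund after mianserin to 0.33, and the saline difference of Jund between the tissues to -0.37. The members called in the NAc went from 6, 5, 4, 2, 1 and 2 (haloperidol, risperidone, methamphetamine, mianserin, venlafaxine, ketamine) to 3, 0, 1, 6, 2 and 4. All genes called higher went from 195, 165, 60, 529, 406 and 531 to 8, 0, 3, 10644, 13014 and 8686. With this scaling and same-set saline, chosen after seeing the data, risperidone had 3, venlafaxine 0 and ketamine 1. With the percentile taken over the 23258 genes above 0 in every library, also chosen after seeing the data, ketamine had 1. In the comparison of tissues the calls of haloperidol went from 3 to 0 with the scaling and to 1 with same-set saline added, those of ketamine from 0 to 1 in both, and those of mianserin from 0 to 1 over the common genes, while the saline libraries went from 2 to 6. Between the saline libraries, all genes called lower in the NAc went from 13749 to 21051.

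The choice of control mattered next. With saline set I alone the NAc counts were 4 for mianserin, 3 for venlafaxine and 5 for ketamine. The calls it added there were falls, of Jun and Jund after each of these drugs (-0.36 to -0.24) and of Junb after ketamine (-0.64). Of the 37034 genes, 8542, 8694 and 8416 were called higher after these drugs and 2439, 2960 and 1942 lower. The PFCx count for ketamine was 3, with 105 of all genes higher and 638 lower. In the comparison of tissues haloperidol had 1, mianserin 2, venlafaxine 1 and ketamine 2. The calls of mianserin, venlafaxine and ketamine were negative there, as in 348, 404 and 232 of all genes. With saline set II alone the NAc counts were 1 for mianserin, 0 for venlafaxine and 1 for ketamine, and in the comparison of tissues haloperidol had 5, risperidone 2 and methamphetamine 1. In that comparison 884, 761 and 776 of all genes were called higher for haloperidol, risperidone and methamphetamine, and 2012, 2168 and 1889 lower. With same-set saline the NAc counts were 1, 0 and 1 for the set II drugs, and haloperidol had 1 in the comparison of tissues. A mean FPKM of at least 1 gave 1 for mianserin and 0 for venlafaxine in the NAc and 1 for ketamine in the PFCx, and a pseudocount of 0.1 gave 1 for ketamine in the NAc and 1 for haloperidol in the PFCx. The cause was not tested for the filter and the pseudocount. Leaving out 1 library in turn gave 5 to 6 members in the NAc for haloperidol, 4 to 6 for risperidone, 4 to 5 for methamphetamine, 1 to 2 for mianserin, 0 to 2 for venlafaxine and 1 to 2 for ketamine. In the PFCx it gave 1 to 3 for haloperidol, 2 to 3 for risperidone, 3 to 4 for methamphetamine and 2 to 3 for mianserin, and in the comparison of tissues 3 to 4 for haloperidol and 0 to 1 for mianserin.

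The replicate numbers of the labels were not taken to pair the libraries, because not every pair of same-numbered libraries correlated above 0.1. Within a set their deviations from the group mean correlated at 0.173 in the NAc and 0.248 in the PFCx on average, with lows of -0.106 and -0.14. All correlations were above 0.1 in 6 and 5 of 12 pairs of groups. Libraries of other numbers had -0.057 and -0.075, which is no separate baseline, since the deviations within a group sum to 0. As a block, the replicate number gave 1 member for mianserin and 0 for venlafaxine in the NAc and 1 for ketamine in the PFCx, where Fos passed (adjusted p = 0.0449). It also called Fosb after mianserin in the PFCx (adjusted p = 0.0475). The replicate block with same-set saline gave 1, 0 and 1 for mianserin, venlafaxine and ketamine in the NAc, 2 for ketamine in the PFCx, and 1 each for mianserin and ketamine in the comparison of tissues.

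The files hold no read counts, so that depth enters through FPKM alone. For Fosl1 the Cufflinks bounds lay at a median distance of 34.0% of the value in the NAc, and small differences of such low genes were not detectable at this depth. The sample sets differ in the genes detected in the NAc, and a drug of either set cannot be told apart from its set when compared with the other. The saline sets also differ in markers. The 4 blood markers summed to 69.2 to 96.8 FPKM in set I and 36.0 to 64.7 in set II in the NAc, and to 85.0 to 123 and 32.8 to 53.7 in the PFCx. The oligodendrocyte markers in the NAc summed to 617 to 703 and 512 to 575. Their part in the results was not tested. A single dose and a single time were sampled, and 4 libraries per group limit what passes a test over 37034 genes.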
